A study of Mus musculus with 8 samples.

Results

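Troponin is the calcium switch of the striated muscle thin filament. Troponin C binds calcium, troponin I holds the filament in the off state and troponin T anchors the complex to tropomyosin. Separate genes encode the cardiac, slow skeletal and fast skeletal forms of the T and I subunits, while the slow form of troponin C also serves the heart. In developing skeletal muscle the cardiac troponin T gene is active before the adult forms take over, and it is also expressed in regenerating fibres.

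All 8 genes of the family were followed here, namely Tnnt2 and Tnni3 (cardiac), Tnnt1, Tnni1 and Tnnc1 (slow, Tnnc1 also cardiac) and Tnnt3, Tnni2 and Tnnc2 (fast). They were taken as the probe sets whose platform annotation names 1 of these symbols and no other gene, which gave 11 of 20380 probe sets with 1 symbol. No measured value entered the match by symbol, but the family was selected on the dystrophic against normal differences of these same arrays, so its calls and p-values are a description and are not independent evidence. Each p-value sets a difference between groups against the spread between pools. The samples were diaphragm, the main muscle of breathing, from dy/dy mice with a laminin-deficient muscular dystrophy and from control mice, all 8 weeks old. Each group had 4 arrays, each hybridised with RNA of muscle pooled from 3 mice, which makes 12 mice per group and hides the spread between single mice. The labels state neither strain background nor sex. The pool was the unit of replication.

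Values are MAS5 signals, an Affymetrix intensity on a linear scale, with every array rescaled to a common trimmed mean. In dy/dy mice the defect lies in laminin α2, and the signal of its gene Lama2 was 232 to 333 in dystrophic pools, against 749 to 982 in normal pools. Skeletal muscle markers were bright in every pool, with Ckm, muscle creatine kinase, at 24664 in dystrophic and 28868 in normal pools on average. Normal replicate 4 stood apart. Its deposited trimmed mean was 400.2 against 500.2 on the other arrays, and its hybridisation spike-ins had a geometric mean of 1801, with 665 to 1216 on the others. Poly-A spike-ins divided the arrays into 3 sets that each hold equal numbers of both groups, with geometric means of 543 to 588 for replicate 1 of each group, 307 to 354 for replicate 3 and 125 to 172 for replicates 2 and 4. A difference is given on the scale of log2(signal + 16), as dystrophic minus normal, and called when the limma adjusted p over all 13575 tested probe sets was under 0.05.

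Of the 11 troponin probe sets, 10 were bright enough to be tested, 2 were called and both were higher in dystrophic diaphragm. The share called in either direction among all tested probe sets was 0.494%, and 0.457% were called higher. limma called 0 troponin probe sets lower, where the share over all tested was 0.0368%. At an unadjusted p under 0.05 there were 3 higher and 1 lower, where 5.6% of all tested probe sets were higher and 4.13% lower. Both called probe sets belong to Tnnt2, so 1 of the 8 genes was called. The slow members lay slightly above and the fast members slightly below the normal mean, and none of these passed the test.

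**Figure D1:**
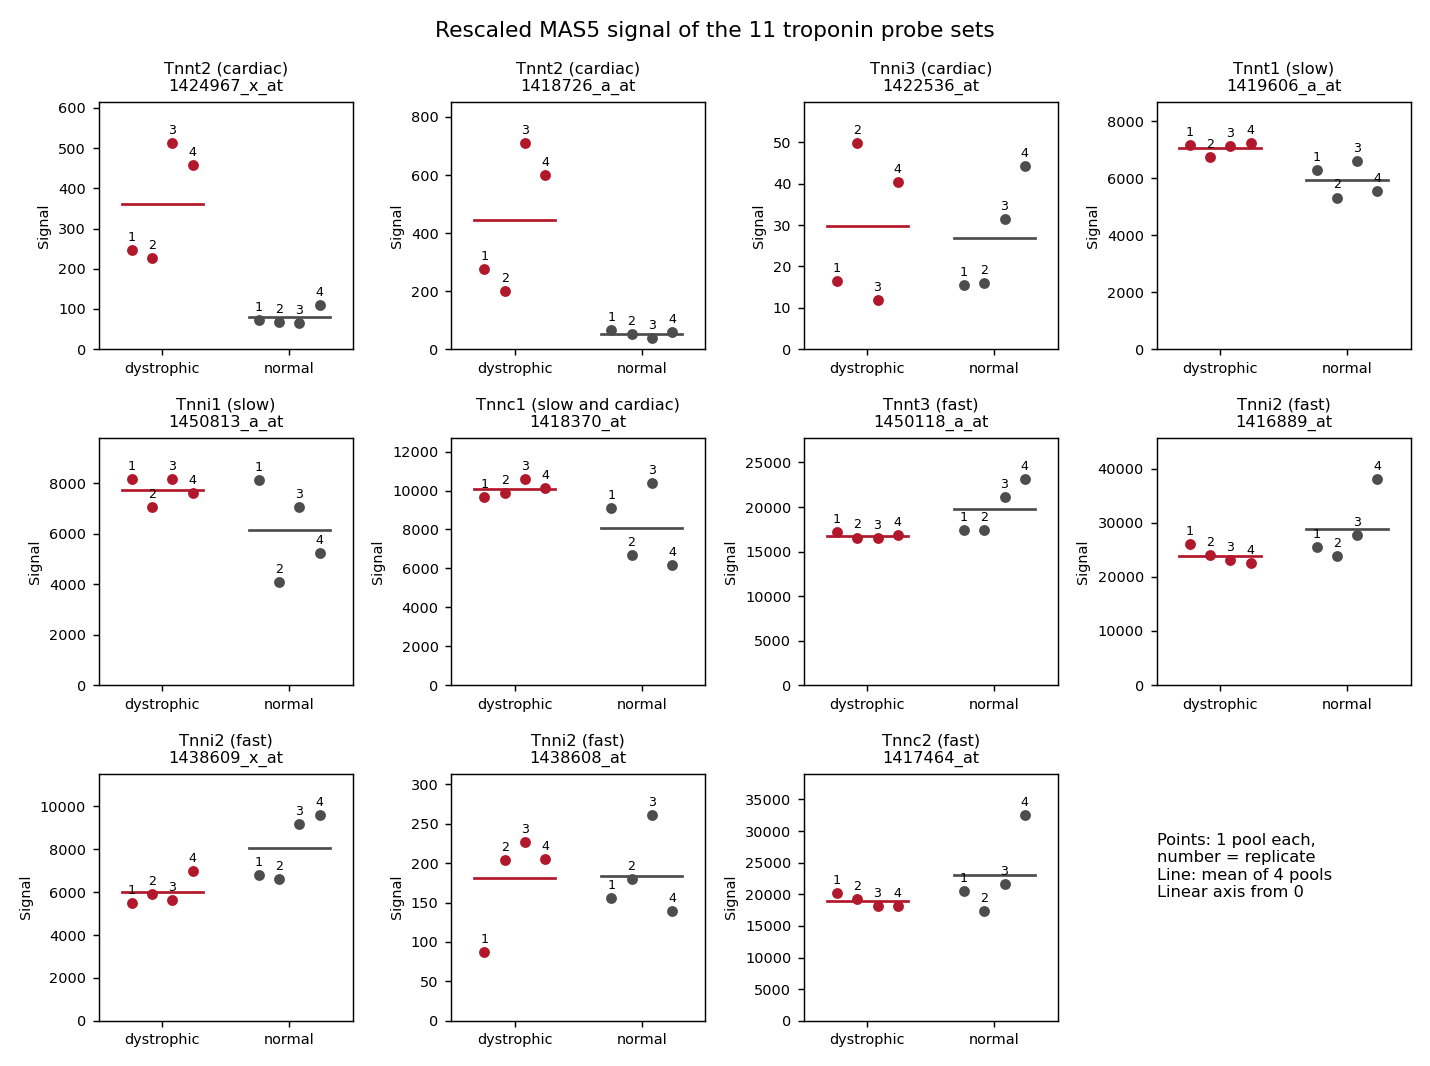
Rescaled MAS5 signal (linear axis from 0) of each of the 11 troponin probe sets, with 4 dystrophic pools left and 4 normal pools right, each point 1 pool labelled by its replicate number and each line the mean of 4. Both Tnnt2 probe sets separate the groups without overlap, as do 3.87% of all tested probe sets in this direction, whereas Tnni3 lies under 50 in every pool.

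Tnnt2, cardiac troponin T, rose in dystrophic diaphragm by both of its probe sets. The first, 1424967_x_at, had signals of 247, 227, 512 and 458 in dystrophic pools 1 to 4, against 72.0, 66.8, 66.2 and 110.3 in normal pools 1 to 4. The second, 1418726_a_at, had 277, 199, 710.0 and 599 in the dystrophic pools, against 66.01, 52.6, 37.2 and 59.2 in the normal pools. Every dystrophic pool lay above every normal pool in both, as in 3.87% of all tested probe sets. Among the dystrophic pools, replicates 3 and 4 were the higher pair and replicates 1 and 2 the lower pair, by each probe set.

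The mean signal of 1424967_x_at was 361 ± 145 in dystrophic and 78.8 ± 21.1 in normal pools (SD, n = 4 each), a ratio of mean signals of 4.58. The mean log2(signal + 16) differed by 1.93 (SE 0.28, adjusted p = 0.0102 by limma). That of 1418726_a_at was 446 ± 247 in dystrophic and 53.8 ± 12.3 in normal pools (SD, n = 4 each), a ratio of mean signals of 8.30. The mean log2(signal + 16) differed by 2.57 (SE 0.35, adjusted p = 0.00776 by limma). The probe sets thus gave the same direction and ratios of different size. A name ending in _x_at marks probes that may also match other transcripts, and one ending in _a_at marks probes shared by several transcripts of 1 gene. Both passed the filter on dim probe sets, at a signal of 122, only through the dystrophic pools, since the normal means lie below it. Their calls and p-values thus come after a selection that favours a difference. With no filter, over all 22626 probe sets, the adjusted p was 0.0333 for 1424967_x_at and 0.0251 for 1418726_a_at. The normal signals were nevertheless above the highest value of the TrpnX negative controls, 32.2, in every pool. They were dim all the same, with normal means at percentiles 31.0 (1424967_x_at) and 24.5 (1418726_a_at) of all non-control probe sets, so the ratios rest on weak normal signals.

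Within the 3 sets of arrays with like spike-in level the log2 difference of 1424967_x_at was 1.58 in replicate 1, 2.68 in replicate 3 and 1.73 in replicates 2 and 4. That of 1418726_a_at was 1.84, 3.77 and 2.34 in the same order. Both probe sets were thus higher within each set, although replicates 1 and 3 have 1 array per group and allow no test there. Without dystrophic replicate 4 the first probe set was no longer called (adjusted p = 0.0552), while the second was called in all 8 fits that left out 1 array, with adjusted p up to 0.0442.

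Tnni3, cardiac troponin I and the inhibitory subunit of the adult heart, was dim. Its signal was 16.6, 49.8, 12.0 and 40.5 in dystrophic pools 1 to 4, against 15.5, 15.99, 31.4 and 44.2 in normal pools 1 to 4. The groups overlapped, with means of 29.7 ± 18.3 in dystrophic and 26.8 ± 13.8 in normal pools (SD, n = 4 each). Values on both sides of the TrpnX maximum of 32.2 occurred in each group, so no fold is given, and the probe set fell under the filter.

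Heart muscle markers were checked beside this result. Of 13 such genes, 12 had a probe set and 5 were tested, of which limma called 0 and 0 had an unadjusted p below 0.05. Over all tested genes 0.645% were called and 10.8% had such a p, so counts of 0 among 5 genes say little. The summed signal of the 12 was 1111 to 1665 in dystrophic pools and 1263 to 1642 in normal pools. The brightest were Kcnj3, a potassium channel subunit, at 270.0 in dystrophic and 281 in normal pools, Mybpc3, cardiac myosin-binding protein C, at 202 in dystrophic and 221 in normal pools, and Nkx2-5, a cardiac transcription factor, at 165 in dystrophic and 183 in normal pools, all above the negative controls. Among the dimmest, Myl7, an atrial myosin light chain, averaged 15.0 in dystrophic and 17.3 in normal pools, within the range of the negative controls. Myh6, the adult cardiac myosin heavy chain of the mouse, averaged 45.4 in dystrophic and 30.0 in normal pools. The part of heart RNA in the Tnnt2 result was not tested.

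These 3 regulatory windows are shown because they belong to the called gene, to the other cardiac gene and to the slow troponin T gene. Each is the stretch of 250 bases before an annotated transcript start, from RefSeq with build GRCm38.p6, read along the gene's strand. Capitals mark 2 motifs searched on both strands, CATTCC (the MCAT element, bound by TEAD factors, GGAATG on the other strand) and CANNTG (the E-box, bound by myogenic factors such as myogenin). The Tnnt2 window is chr1:135836084-135836333 on the plus strand, the Tnni3 window chr7:4522529-4522778 on the minus strand and the Tnnt1 window chr7:4515976-4516225 on the minus strand.
Tnnt2: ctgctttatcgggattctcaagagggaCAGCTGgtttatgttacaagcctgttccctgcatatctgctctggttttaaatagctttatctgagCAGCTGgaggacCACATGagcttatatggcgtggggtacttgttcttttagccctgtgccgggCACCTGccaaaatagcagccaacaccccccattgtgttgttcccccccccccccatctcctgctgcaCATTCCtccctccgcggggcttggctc
Tnni3: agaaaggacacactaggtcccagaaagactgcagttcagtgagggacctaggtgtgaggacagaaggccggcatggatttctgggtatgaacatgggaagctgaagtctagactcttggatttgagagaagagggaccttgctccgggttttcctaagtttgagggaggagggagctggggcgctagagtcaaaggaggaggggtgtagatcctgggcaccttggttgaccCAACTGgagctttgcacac
Tnnt1: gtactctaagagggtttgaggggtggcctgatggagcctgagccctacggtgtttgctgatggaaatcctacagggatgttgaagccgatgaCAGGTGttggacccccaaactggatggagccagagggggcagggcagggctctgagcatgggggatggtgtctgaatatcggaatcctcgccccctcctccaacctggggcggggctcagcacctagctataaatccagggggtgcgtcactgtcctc

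The Tnnt2 window held 1 MCAT match, 27 to 22 bases before the start, and 4 E-boxes, none overlapping another. The Tnni3 and Tnnt1 windows held 0 MCAT matches and 1 E-box each. The table had windows for 6 of the 8 genes, 8 windows in all, with those of Tnnt3 and Tnni2 not among them. Besides Tnnt2, only the Tnnc1 window held an MCAT match, 58 to 53 bases before its start. A second Tnnt2 window, at another annotated start, held 0 MCAT matches and 1 E-box. Over all 32851 windows of the same length, 12.6% held an MCAT match and 66.2% an E-box. The consensus sequences of MEF2 and of the CArG box, searched likewise, were in 2.92% and 1.47% of all windows and in 0 of the 8. These letter matches are descriptions of the windows only.

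Of 15 factors listed from general knowledge as binding regulatory regions of troponin genes, 14 were tested. Their median log2 difference was 0.00, against -0.01 over all 8214 tested genes. limma called 1 higher and 0 lower, where 0.645% of all tested genes were called. The 1 was Myog, myogenin, with a signal of 688 ± 279 in dystrophic and 219 ± 36.3 in normal pools (SD, n = 4 each, log2 difference 1.502, SE 0.26, limma adjusted p = 0.0290). It lost its call in 7 of the 8 fits that left out 1 array. Of the 14, 2 had an unadjusted limma p under 0.05, as did 10.8% of all tested genes. These were Myog and Gtf2ird1, which was lower at -0.58. The brightest were Mef2c, Mef2d and Mef2a, at log2 differences of -0.22, 0.02 and -0.07, and none passed.

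Genes of embryonic and regenerating fibres were listed beside Tnnt2. Of 20 on that list, 15 were tested and limma called 9 higher and 0 lower, with a median log2 difference of 1.18 against -0.01 over all tested genes, of which 0.645% were called in either direction and 0.597% were called higher. Myh3, the embryonic myosin heavy chain, averaged 833 ± 229 in dystrophic and 9.26 ± 1.40 in normal pools, and its normal mean lay within the range of the negative controls. Myl4, the embryonic and atrial light chain, averaged 1744 in dystrophic and 149.6 in normal pools, and Myh8, the perinatal heavy chain, 809.9 in dystrophic and 87.4 in normal pools. Of the 9, 4 (Myh3, Myh8, Ncam1 and Mybph) passed the filter only through the dystrophic pools, so the count and median over tested genes are a description. With no filter all 18 genes of the list on the array were tested, and 8 were called. Those added were Mymk, at 432 in dystrophic and 26.6 in normal pools, Chrng, at 319 and 36.5, and Myf5, lower at 42.7 and 54.0. The normal mean of Mymk lay within the range of the negative controls, and that of Chrng near their maximum of 32.2. Myog was not among these 8, which were drawn from a wider set of genes than the 9. The others of the 9 called after the filter were Ankrd1, Mybph, Myog, Ncam1, Chrna1 and Igf2, at log2 differences of 2.49, 1.85, 1.502, 1.41, 1.18 and 0.92. The brightest uncalled members were Actc1, cardiac α-actin, at a log2 difference of 0.35 (SE 0.42, adjusted p = 0.852) and Myf6 at -0.12 (adjusted p = 0.859). Averaged over the list, the deviation from the normal mean was 1.21, 1.24, 1.64 and 1.68 in dystrophic pools 1 to 4, so that replicates 3 and 4 were the higher pair here too. The count called was 5 without dystrophic replicate 3 and 5 without dystrophic replicate 4.

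Markers of macrophages and fibroblasts were on average higher in dystrophic than in normal pools. In dystrophic pools 1 to 4 the mean log2 deviation from normal was 0.52, 0.68, 0.77 and 0.78 for macrophage markers. Replicates 3 and 4 were thus the higher pair for macrophage markers as well. For fibroblast markers the deviation was 0.51, 0.97, 0.90 and 0.87, so replicate 2, the lowest dystrophic pool for Tnnt2, was the highest. The 10 macrophage markers summed to 10911 to 12148 in dystrophic pools and 6659 to 8678 in normal pools. limma called 3 of them, Mpeg1, Ctss and Cd68, at log2 differences of 2.03, 1.33 and 0.96, and Mpeg1 passed the filter only through the dystrophic pools. Over all tested genes 0.645% were called, and 10.8% had an unadjusted limma p under 0.05. Of the 10 macrophage markers 7 had such a p, their median was 0.69, and 1, Cd163, lay below 0, at -0.35. The brightest, Lyz2, Csf1r and Adgre1, lay at 0.72, 0.51 and 0.75 and were not called. The 9 fibroblast markers summed to 41719 to 53475 in dystrophic pools and 27908 to 34637 in normal pools. The 3 called were Postn, Lum and Col1a2, at 2.41, 1.24 and 0.88, while Dcn and Col3a1, the brightest, lay at 0.29 and 0.40 and were not called. Of the 9, 7 had an unadjusted limma p under 0.05, their median was 0.66, and 1, Thy1, lay below 0, at -0.27.

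The 9 liver markers on the array summed to 5867 to 65495 in dystrophic pools, highest in replicate 3, and 2987 to 5627 in normal pools. limma called 0 of the 7 tested, of which 3 had an unadjusted p below 0.05, and Cyp2e1, Alb and Rbp4, the brightest, lay at 0.98, 2.27 and 0.59. limma also called 0 of 6 smooth muscle, 0 of 4 adipocyte, 0 of 1 red blood cell and 0 of 7 endothelial markers, with medians of 0.01, 0.00, -0.29 and -0.26, and of these 1, 0, 0 and 2 had an unadjusted p below 0.05. Over all tested genes 0.645% were called and 10.8% had such a p. The part of these cell types in the Tnnt2 result was not tested. In whole muscle a change in the number of cells of a type and a change in RNA per cell cannot be told apart.

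**Figure D2:**
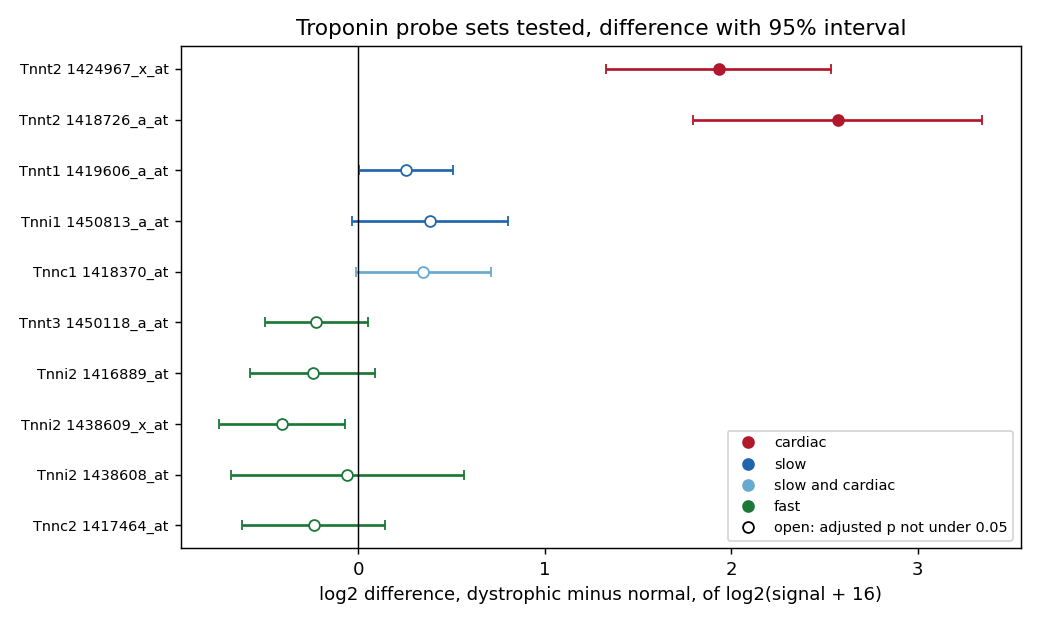
Log2 difference, dystrophic minus normal, of log2(signal + 16) for the 10 tested troponin probe sets, with the 95% interval from the limma fit and colours for the isoform class. The Tnnt2 intervals run from 1.33 to 2.54 and from 1.80 to 3.35, and those of the other probe sets all lie between -0.75 and 0.80.

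The slow troponins were measured by 1 probe set each. Tnnt1, slow troponin T, had signals of 7183, 6729, 7119 and 7236 in dystrophic pools 1 to 4, against 6284, 5325, 6609 and 5543 in normal pools 1 to 4. All 4 dystrophic pools lay above all 4 normal pools, a property shared by 3.87% of tested probe sets in this direction. The means were 7067 ± 229.9 in dystrophic and 5940.0 ± 606 in normal pools (SD, n = 4 each). The log2 difference was 0.25 (SE 0.12) and did not pass (limma adjusted p = 0.509).

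Tnni1, slow troponin I, had signals of 8145, 7069, 8166 and 7598 in dystrophic pools 1 to 4, against 8130.1, 4098, 7041 and 5236 in normal pools 1 to 4. The groups overlapped, and normal replicates 1 and 3 lay near the dystrophic pools and normal replicates 2 and 4 below them. The means were 7745 ± 521 in dystrophic and 6126 ± 1804 in normal pools (SD, n = 4 each), and the mean log2 values differed by 0.38 (SE 0.19, adjusted p = 0.551 by limma).

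Tnnc1, the troponin C of slow fibres and heart, had signals of 9679.7, 9848, 10599 and 10134 in dystrophic pools 1 to 4, against 9104, 6662, 10385 and 6168 in normal pools 1 to 4. Again normal replicates 2 and 4 were low and the other normal pools lay close to the dystrophic range. The means were 10065 ± 402 in dystrophic and 8079.8 ± 2003 in normal pools (SD, n = 4 each), and the mean log2 values differed by 0.35 (SE 0.17, adjusted p = 0.530 by limma).

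In each of the 3 slow genes normal replicates 1 and 3 lay above normal replicates 2 and 4, although the order within each pair differed between genes. Their differences were largest in the spike-in set that holds replicates 2 and 4, at 0.36 for Tnnt1, 0.66 for Tnni1 and 0.64 for Tnnc1. Between the replicate 1 arrays they were 0.19, 0.00 and 0.09, and between the replicate 3 arrays 0.11, 0.21 and 0.03. Without normal replicate 2 the log2 difference was 0.20 for Tnnt1, 0.21 for Tnni1 and 0.27 for Tnnc1. Without normal replicate 4 it was 0.22, 0.33 and 0.23.

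**Figure D3:**
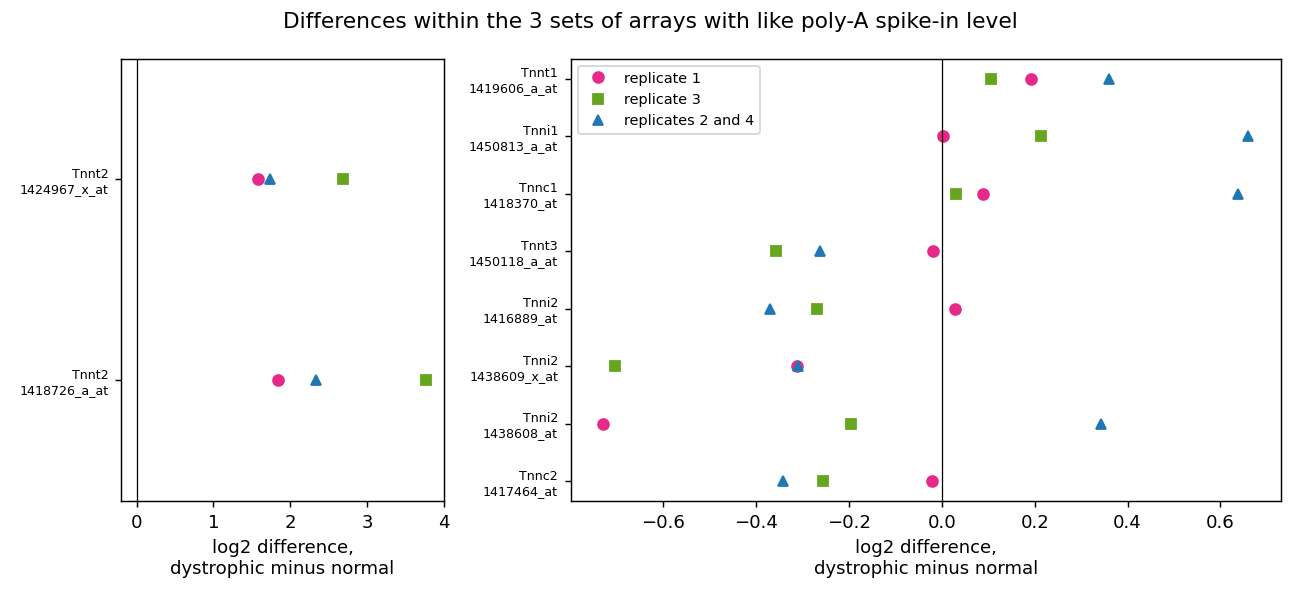
Log2 difference, dystrophic minus normal, within each of the 3 sets of arrays with like poly-A spike-in level, for the 2 Tnnt2 probe sets (left) and the other 8 tested troponin probe sets (right, another axis range). Tnnt2 lies above 1.5 in every set, while Tnni1 runs from 0.00 between the replicate 1 arrays to 0.66 in the set of replicates 2 and 4.

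The slow troponins were set beside 16 other genes of slow fibres. Of these, 13 were tested, with 7 above and 6 below 0 and a median log2 difference of 0.07. That median was -0.02 without normal replicate 2, 0.12 without normal replicate 3, 0.14 without normal replicate 4 and 0.17 under quantile normalization. limma called 1, Ankrd2, whose product is induced by stretch (log2 difference 1.65, SE 0.26, adjusted p = 0.0165), and that call was lost without dystrophic replicate 1, 3 or 4 or normal replicate 3. Over all tested genes 0.645% were called, and 10.8% had an unadjusted limma p under 0.05. Of the 13, 3 had such a p, namely Ankrd2, Csrp3 at 0.80 and Casq2 at 0.36, all higher in dystrophic pools. The brightest members were Myl2, the slow and ventricular regulatory light chain, at -0.10, Sln, a regulator of the calcium pump, at 0.20, and Atp2a2, the slow calcium pump, at -0.24, and none of these passed. Averaged over the list, normal replicate 4 lay at 0.32 above the normal mean and normal replicate 2 at -0.30, whereas the slow troponins averaged -0.21 in normal replicate 4 and -0.31 in normal replicate 2.

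**Figure D4:**
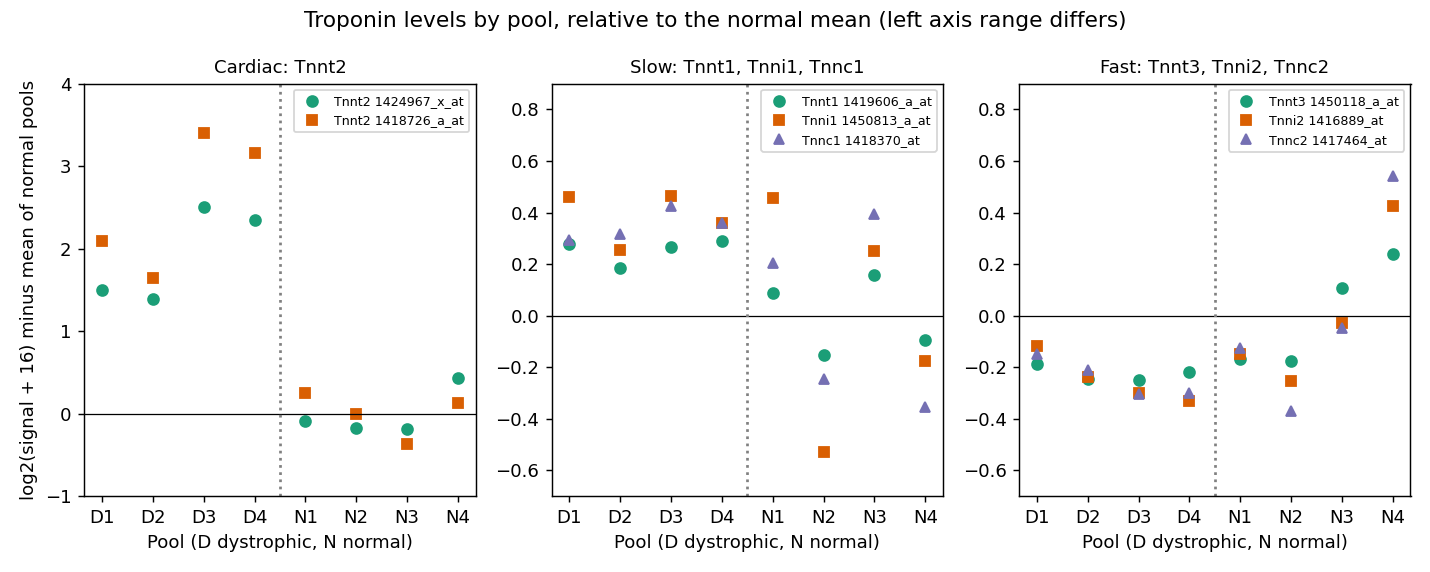
Log2(signal + 16) of each pool minus the mean of the 4 normal pools, for Tnnt2 (left, wider axis range), the slow troponins (middle) and the fast troponins (right). D1 to D4 are dystrophic and N1 to N4 normal pools. The slow genes fall below 0 in N2 and N4, and the fast genes stand highest in N4.

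By their brightest probe sets the fast troponins were among the strong signals of every pool. Tnnt3, fast troponin T, had signals of 17231, 16571, 16499.7 and 16866 in dystrophic pools 1 to 4, against 17465, 17366, 21155 and 23158 in normal pools 1 to 4. All dystrophic pools lay below all normal pools, as did 2.53% of tested probe sets, although the gap to normal replicates 1 and 2 was narrow. The means were 16792 ± 333 in dystrophic and 19786 ± 2857 in normal pools (SD, n = 4 each), a log2 difference of -0.23 (SE 0.13), which did not pass (limma adjusted p = 0.608). Under quantile normalization the groups overlapped and the difference was -0.04.

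Tnni2, fast troponin I, was covered by 3 probe sets. The brightest, 1416889_at, had signals of 26095, 24054, 23026 and 22510.4 in dystrophic pools 1 to 4, against 25579.8, 23793, 27770.1 and 38093 in normal pools 1 to 4. The groups overlapped, and normal replicate 4 lay far above the rest. Its means were 23921 ± 1585 in dystrophic and 28809 ± 6399.7 in normal pools (SD, n = 4 each), and the mean log2 values differed by -0.25 (SE 0.15, adjusted p = 0.657 by limma).

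The second Tnni2 probe set, 1438609_x_at, had 5487, 5917, 5623 and 6981 in dystrophic pools 1 to 4, against 6817, 6599.9, 9168 and 9614 in normal pools 1 to 4. Here 3 dystrophic pools lay below all normal pools and dystrophic replicate 4 lay among them. The log2 difference was -0.41 (SE 0.15), with an unadjusted p of 0.0219 and a limma adjusted p of 0.403. The third, 1438608_at, had 87.5, 203, 226 and 205 in dystrophic pools 1 to 4, against 156, 179, 261 and 139 in normal pools 1 to 4, and its groups overlapped (log2 difference -0.06, SE 0.29, limma adjusted p = 0.970). The 3 probe sets thus differ in size of difference for 1 gene, and the sign of the third turned with the setting.

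Tnnc2, fast troponin C, had signals of 20176, 19316, 18095 and 18151 in dystrophic pools 1 to 4, against 20473, 17311, 21599.5 and 32580.1 in normal pools 1 to 4. Normal replicate 4 was again the highest, and normal replicate 2 lay below every dystrophic pool. The means were 18934 ± 1001 in dystrophic and 22991 ± 6645 in normal pools (SD, n = 4 each), and the mean log2 values differed by -0.24 (SE 0.18, adjusted p = 0.721 by limma).

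By the brightest probe set of each gene, the mean fast differences were smaller without normal replicate 4. Without it the log2 difference was -0.15 for Tnnt3, -0.10 for Tnni2 by 1416889_at and -0.06 for Tnnc2, and under quantile normalization -0.04, -0.04 and -0.03. Between the replicate 1 arrays, which do not include normal replicate 4, it was -0.02, 0.03 and -0.02, and between the replicate 3 arrays -0.36, -0.27 and -0.26. The second Tnni2 probe set, 1438609_x_at, differed from this. It lay at -0.32 without normal replicate 4 and at -0.35 under quantile normalization, where its groups did not overlap, and at -0.31, -0.70 and -0.31 within the sets of replicate 1, of replicate 3 and of replicates 2 and 4. Skeletal muscle markers moved with the fast troponins in that pool: the 8 on the array averaged 0.35 above the normal mean in normal replicate 4 on the log2 scale, and the fast troponins 0.40.

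The fast troponins were set beside 18 other genes of fast fibres. Of these, 15 were tested, 12 lay below 0 and the median log2 difference was -0.21, against -0.01 over all tested genes, or -0.12 without normal replicate 4. The 8 skeletal muscle markers tested had a median of -0.20, with 8 below 0. None of the 15 passed (0 calls by limma, where 0.645% of all tested genes were called), and 2 lay under 0.05 before adjustment, where 10.8% of all tested genes did. These 2 went opposite ways, with Pvalb lower at -0.47 (SE 0.15) and Mylk2 higher at 0.85 (SE 0.31). The brightest were Atp2a1, the fast calcium pump, at -0.23 (SE 0.17), Myl1, a fast essential light chain, at -0.36 (SE 0.18), and Myh2, the 2A myosin heavy chain, at -0.34 (SE 0.18). Of 22 other thin filament genes, namely actin, tropomyosin and their partners, 15 were tested, limma called 0, 0 had an unadjusted p under 0.05 and the median was -0.06. Acta1, skeletal α-actin, lay at -0.20, and Tpm1 and Tpm2, tropomyosins that troponin T binds, at -0.23 and -0.06.

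Averaged over the 3 genes of each class, the slow minus fast balance of log2 deviations was 0.50, 0.48, 0.67 and 0.62 in dystrophic pools 1 to 4, against 0.40, -0.04, 0.26 and -0.61 in normal pools 1 to 4. The dystrophic pools lay close together above the normal pools, and normal replicate 1 lay nearest to them. This average was formed from genes chosen with these results known and carries no test.

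By the brightest probe set of each gene, the dystrophic pools were also more alike than the normal pools in the slow and fast troponins. On the log2 scale the SD over dystrophic pools, as a ratio to that over normal pools, was 0.32 for Tnnt1, 0.22 for Tnni1, 0.16 for Tnnc1, 0.14 for Tnnt3, 0.31 for Tnni2 by 1416889_at and 0.20 for Tnnc2. The other Tnni2 probe sets had 0.55 (1438609_x_at) and 1.56 (1438608_at). The median of this ratio was 0.71 over the 1132 probe sets in the brightest 5% and 0.89 over all tested. Without normal replicate 4 the ratio was 0.29, 0.19, 0.17, 0.18, 0.84 and 0.45 in the same order of genes, and the median of the bright set 0.91. For Tnnt2 the spread was wider in dystrophic pools, at ratios of 1.94 by 1424967_x_at and 3.12 by 1418726_a_at, or 10.7 and 2.69 without normal replicate 4. These ratios rest on 4 pools per group and were not tested.

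Troponin genes that lie near each other were set side by side. In the RefSeq table of assembly GRCm38.p6, Tnnt2 lies on chromosome 1 with 1 protein-coding gene, Lad1, between it and Tnni1. Tnnt1 and Tnni3 are next to each other on chromosome 7, and Tnni2 and Tnnt3 lie on the same chromosome with Lsp1 between them. In the first pair Tnnt2 was called and Tnni1 was not, at log2 differences of 1.93 and 0.38. In the second pair Tnnt1 was bright in every pool while Tnni3 stayed under 50. The third pair joins genes of the fast class, at -0.23 and -0.25.

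For each troponin gene the 3 genes outside the family with the most similar values over the 8 arrays were found by Pearson's r of log2 values among 8207 genes, as a description. The arrays fall into sets of like poly-A spike-in level and into the dystrophic and normal groups. Differences between such sets and between the groups can both enter r. For Tnnt2, by 1424967_x_at, they were Lgals3 (galectin 3, of macrophages), Igf2 and Ncam1, with r of 0.98, 0.98 and 0.97, and 0.87, 0.88 and 0.85 after group means were subtracted. For Tnnt1 they were Selenom, Rassf7 and Slc7a5, for Tnni1 Wdr45, Bcap31 and Sec61b, and for Tnnc1 Pfdn5, Rap2b and Ctdsp2. For Tnni2 they were Lpl, Uqcrb and Ndufb9, for Tnnc2 Mb (myoglobin), Lpl and Atp2a1, and for Tnnt3 Palmd, Acadm and Cyc1. For Tnni3 they were Capza1, Arpc1a and Slc20a2, although its signals lie on both sides of the negative-control maximum and their order over arrays may be background. Over these 24 pairs r was 0.92 to 0.997, or 0.85 to 0.996 with group means subtracted.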

How the data were processed

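RNA of 8 pooled diaphragm samples was measured on Affymetrix arrays. The authors deposited 1 table of intensity values for 22690 probe sets, 64 of them controls, made with MAS5 per the submitters' processing notes; the program's version, and whether a probe set was called present, are not stated there. Arrays were rescaled to the mean 2% trimmed mean, 487.7, since trimmed means differed by over 10%. log2(signal + 16) was tested with limma 3.58.1 in R 4.3.3 (lmFit, eBayes with an intensity trend) without a block, and p-values were adjusted by Benjamini-Hochberg over 13575 probe sets, after controls and the dimmest 40% were left out. Among all 22626 non-control probe sets, before that filter, 20380 had 1 symbol, 691 several and 1555 none; 20351 of the first matched a RefSeq table (GRCm38.p6) by Entrez identifier. A gene's brightest probe set represented it. Named genes were every troponin probe set, the called and the 3 brightest members of the lists, and the 3 most similar genes per member. Lists of smooth muscle, adipocyte, red blood cell and endothelial markers are given by counts. Myh6 and Myl7 were picked after their values were seen. So were Pvalb, Mylk2, Casq2, Csrp3 and Gtf2ird1, uncalled list members with an unadjusted limma p under 0.05. Members, lists, spike-in sets and alternatives were chosen with earlier results of these data known. The alternatives were offsets of 1 and 64, scaling, filter, trend, blocks, arrays left out and a threshold of 0.01. The differences within spike-in sets were added after the data were seen. Same-numbered pools had correlations of deviations of 0.48, -0.05, 0.15 and 0.13, so replicate numbers were not taken as pairs. The number of arrays limits the precision of every comparison. Figures used matplotlib 3.10.9 in Python 3.11.15.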

Additional observations from a re-analysis of the deposited data

Results flagged for a closer look

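Among the 11 troponin probe sets in both groups, 22 sets of 4 pools were examined for a sample far from the others, and 2 had one. Chance gives about 1 in 20. Tnnt2 by 1424967_x_at had a signal of 110.3 in normal replicate 4, where the other normal pools lay between 66.2 and 72.0. That array had been deposited at a lower scale than the rest. Before rescaling the value was 90.5, against 67.9 to 73.8 in the other normal pools, and 1418726_a_at did not set the same pool apart, at 59.2. Tnni2 by the dim probe set 1438608_at had a signal of 87.5 in dystrophic replicate 1, with the other dystrophic pools at 203 to 226. The brighter Tnni2 probe set 1416889_at was highest in that pool among the dystrophic ones, at 26095.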

How the results depend on the processing

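The 2 Tnnt2 calls were kept under offsets of 1 and 64, quantile normalization, values as deposited, no filter, no trend and both blocks, with log2 differences of 1.52 to 2.12 and 1.98 to 2.88 over all alternatives that tested them. With the lowest 60% left out neither was tested, so 0 troponin probe sets were called; at a threshold of 0.01 there was 1 (1424967_x_at, 1.93, lost its call), and with 1 array left out 1 to 2. The values of the slow and fast members kept their sign in every alternative, uncalled, except Tnni2 by 1438608_at, which turned to 0.011 as deposited, and with 1 array left out ranged from -0.19 to 0.22 (0.22 without dystrophic replicate 1, 0.11 without normal replicate 3). The fast-fibre median was -0.043 under quantile normalization and -0.090 without normal replicate 4 and dystrophic replicate 3. With those 2 left out 5 embryonic genes and 0 factors that bind regulatory regions of troponin genes were called. With the lowest 60% left out 5 embryonic genes were called, with a median of 0.635. Leaving out 1 array gave 5 to 9 embryonic genes and a median of 0.98 to 1.44, 0 to 1 slow-fibre gene and 0 to 1 factor. Averaging the probe sets of each gene left the count called in each list as it was, while the median went to 0.13 for slow-fibre genes, 0.02 for the thin filament and -0.03 for the factors, shifts under 1 SD between pools. No filter gave 0 factors, and the threshold of 0.01 gave 0 factors and 0 slow-fibre genes. The cause of these shifts was not tested, other than that fewer arrays or probe sets entered the fit. The replicate block left 2 troponin probe sets called (adjusted p = 0.0103 and 0.0162) and raised calls over all probe sets to 105 (67 without it); same-numbered pools correlated best with each other in replicates 1 and 4 only. A block for the spike-in sets gave 114. Calls over all probe sets were 34, 29 and 25 without dystrophic replicate 2, 3 or 4.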
